A study of Mus musculus with 9 samples.

Results

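Cytochrome P450 genes were followed across 9 mouse liver RNA libraries. The family was taken as every protein-coding gene whose symbol is Cyp followed by a digit, leaving out Cyp7a1, Cyp7b1, Cyp8b1, Cyp27a1 and Cyp51, which make bile acids and sterols. That gave 73 of the 42188 genes in the deposited count table. Of these, 61 had at least 1 count, 45 had counts in all 9 libraries and 12 had none. A filter on low counts left 48 members among 14603 tested genes, and the 13 with counts that were not tested are described by their levels.

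P450s are heme enzymes that insert an oxygen atom into small molecules. Most sit in the endoplasmic reticulum and take electrons from the reductase Por, while the mitochondrial ones take them from ferredoxin. In liver, families 1 to 3 clear drugs and other foreign compounds, family 4 hydroxylates fatty acids and leukotrienes, and other members handle steroids, retinoic acid and vitamin D. Liver P450 transcripts are set by the receptor Ahr and by nuclear receptors (the constitutive androstane receptor Nr1i3, the pregnane X receptor Nr1i2 and Ppara). Circadian factors also set them, as does the pulse pattern of growth hormone, which makes some members sex-biased.

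The study asked about mesaconate in immune-mediated hepatitis, and had 3 groups of 3 wild-type mice. Control mice were injected in a tail vein with phosphate-buffered saline. ConA mice received 20 mg/kg of concanavalin A, a T cell-activating plant lectin, by that route, and MSA_ConA mice also got 250 mg/kg of MSA (read as mesaconate) into the peritoneum 6 h before it. Livers were taken 12 h after concanavalin A. All mice are labelled C57BL/6J males of 8 weeks, and libraries are numbered 1 to 3 in each group. Library names such as ConA 1 are used here as labelled.

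Library totals ran from 13294600 to 17276391 counts. Hepatocyte markers were abundant in every library, summing to between 93433 and 154718 CPM (counts scaled to a common library size, here with TMM factors, which correct for a few genes taking a large share of reads). The 3 libraries numbered 1 stood apart from the other 6 whatever their treatment. Female cells make Xist from 1 silenced X, and its level did not exceed 0.485 CPM in any library numbered 1 but was 667 CPM or more in numbers 2 and 3, against the male label of those 6. The C57BL/6J strain carries a partial deletion of Nnt, whose level was 29.8 to 34.7 CPM for number 1 beside 168 to 266 CPM elsewhere, and the clock gene Arntl 22.1 to 29.6 CPM against 1.35 to 3.60 CPM. Sex, strain and time of collection cannot be told apart in the division by number. The comparison of numbers below was therefore made beside the labelled groups, with 1 library numbered 1 in each group.

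Some members cannot be counted cleanly. By symbol the table does not hold Cyp2d9, Cyp4a12a, Cyp2b9, Cyp2b13, Cyp2c40, Cyp3a41a or Cyp4a10, so the male-biased members and most female-biased ones were not analysed here. A further 37 genes carry the P450 domain without a Cyp symbol. Of the counts in P450 genes, 14.84% fell in these and 79.14% in the members. Cyp2a4 had no count where its model overlaps that of Cyp2a5, and Cyp3a11, usually abundant in liver, measured at most 7.20 CPM where 2 unnamed coding models overlap it. Cyp4a32 overlaps an unnamed coding model with 32508 counts. In 9 members over 20% of all 50-base words in the transcript also occur in another gene, led by Cyp4a32, Cyp2a4, Cyp2a5, Cyp2d10 and Cyp2c37 (43.83%, 38.01%, 37.03%, 35.78% and 30.08%), so their values are uncertain.

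Cyp2e1, which oxidises ethanol and acetaminophen in cells around the central vein, was the most abundant member per unit length. Its mean was 5185 FPKM, the deposited length-scaled unit, and it took 40.3% to 63.2% of the members' counts in a library. Next on the length-scaled mean came the caffeine-oxidising Cyp1a2 (478 FPKM), Cyp2d26 (424), Cyp2c37 (359), Cyp2c39 (356), Cyp2c29 (336), Cyp2c70 (332), Cyp2d10 (295), Cyp2f2 (248) and Cyp2j5 (216). Means hide wide spread: Cyp2c39 ranged from 0.224 to 1346 CPM, while Cyp4f14, a leukotriene hydroxylase, stayed between 285 and 399 CPM. The members together held 2.04% to 2.47% of all counts in numbers 2 and 3, and 1.56%, 1.09% and 1.28% in Control 1, ConA 1 and MSA_ConA 1. After TMM scaling the same sums were 16265 to 22377 CPM with overlapping ranges, so how low number 1 lies depends on the scaling.

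**Figure D1:**
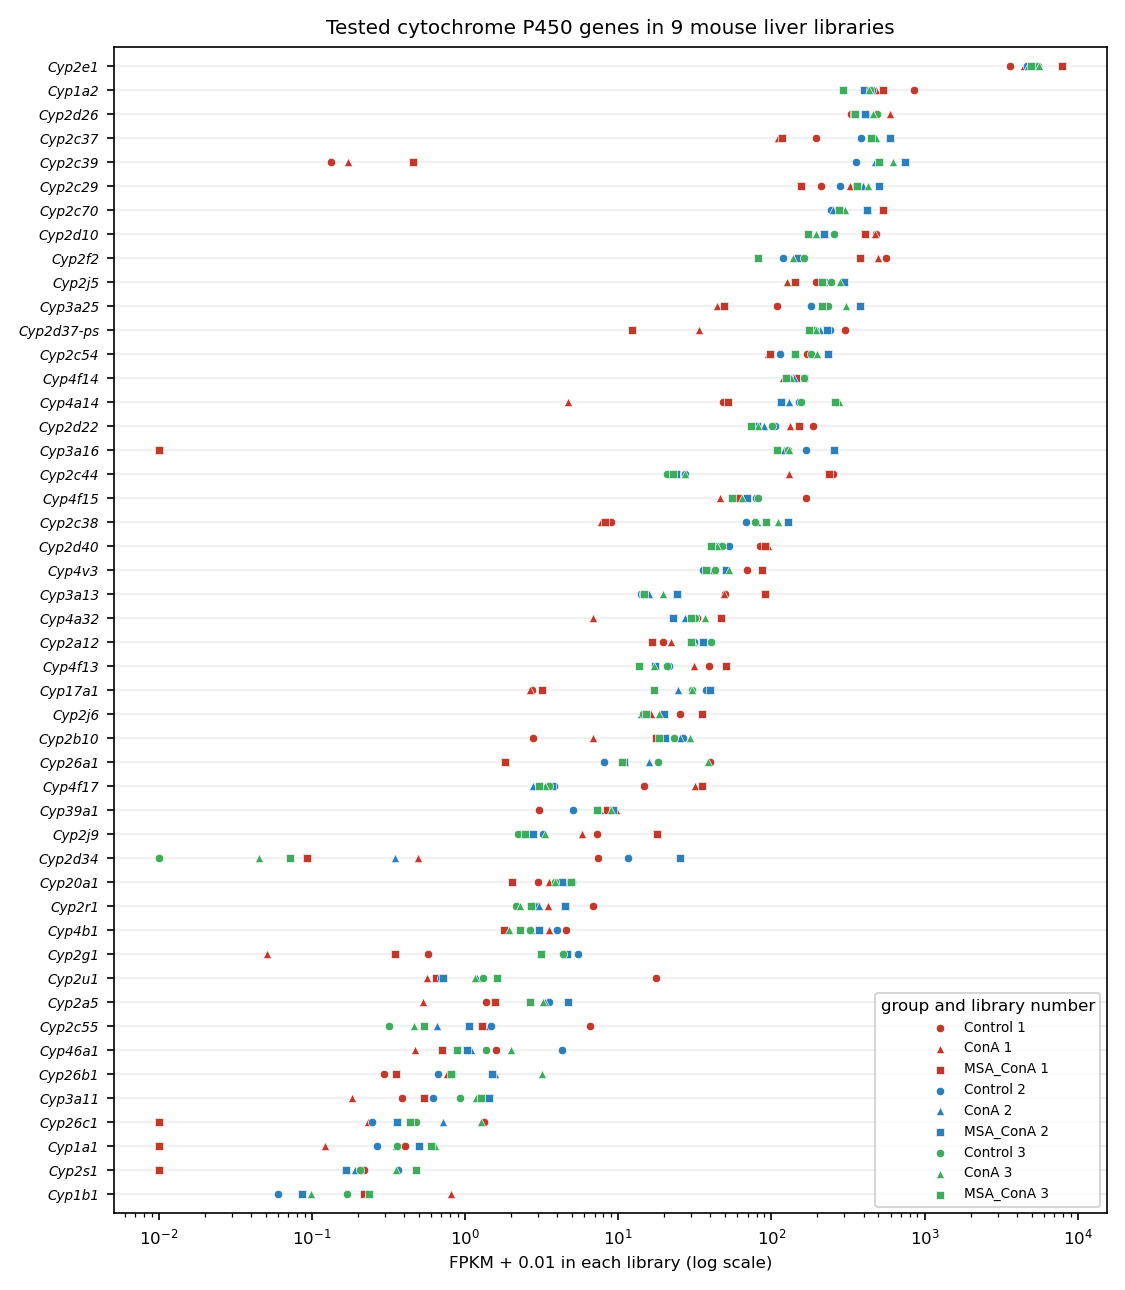
Levels of the 48 tested P450 genes, ordered by mean, as FPKM + 0.01 on a log axis. Each point is 1 library (colour for library number, shape for group). Cyp2e1 is highest in all libraries; for Cyp2c39 and Cyp3a16 the 3 red points of number 1 lie far to the left, and for Cyp2c44, Cyp2f2 and Cyp4f17 to the right.

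The first labelled comparison, ConA against Control, asked what concanavalin A changed. None of the 48 members passed an adjusted p of 0.05 in edgeR's quasi-likelihood test, as for all genes (0.0% called). Cyp2e1 averaged 8506 ± 1798 CPM in Control and 9116 ± 1108 CPM in ConA (SD, n = 3), with a log2 fold change of 0.10 ± 0.41 (SE). At an unadjusted p under 0.05 there were 2 members against 3.86% of genes: the fatty acid hydroxylase Cyp2u1 (-2.74 ± 1.12) and the leukotriene hydroxylase Cyp4f15 (-0.90 ± 0.38). The oxysterol 7-alpha-hydroxylase Cyp39a1 (0.75 ± 0.35) and the retinoic acid hydroxylase Cyp26b1 (1.62 ± 0.76) had values on the other side, where Cyp1b1 (1.35 ± 0.91) and Cyp4f17 (0.76 ± 1.21) also lay, and Cyp2d34 (-4.50 ± 2.42) the lowest. DESeq2 called 2 genes and no member. In median, members changed by -0.08 and all genes by 0.07. For Cyp2u1 the fold came from Control 1 at 89.7 CPM, as every other library lay between 2.82 and 8.41 CPM; in numbers 2 and 3 alone its sign turned (0.22 ± 0.45).

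MSA_ConA against ConA, the comparison for the effect of MSA, gave no called member either (0.0% of genes called), nor one at an unadjusted p under 0.05, against 1.70% of genes. The retinoic acid hydroxylase Cyp26a1 had the lowest value (-1.48 ± 0.80), and Cyp2d34 the highest (4.90 ± 2.46). MSA_ConA against Control also called no member (0.0% of genes called). At an unadjusted p only Cyp2u1 passed (-2.71 ± 1.12, against 5.0% of genes), and the cholesterol 24-hydroxylase Cyp46a1 measured -1.49 ± 0.67. DESeq2 called 0 genes for the first and 55 for the second, none of them a member. The within-group spread used by these tests holds the division by number, and the sum of 14 muscle genes was 399 CPM for ConA 2, 68.9 for ConA 3 and 121, 373 and 4975 CPM for MSA_ConA 1, 2 and 3, with no other library above 3.40 CPM, and in MSA_ConA 1 that sum was nearly all Atp2a1 (119 CPM); their part in these results was not tested.

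Within numbers 2 and 3, 2 libraries a group, no member was called in any of the 3 comparisons (0.0% of genes called). The retinoic acid hydroxylases, which clear retinoic acid, lay higher in ConA than in Control there: Cyp26b1 by 1.65 ± 0.48, Cyp26c1 by 1.46 ± 0.55 and Cyp26a1 by 1.04 ± 0.46 on the log2 scale, with adjusted p of 0.414, 0.414 and 0.432. From ConA to MSA_ConA they measured -1.03 ± 0.47, -1.31 ± 0.54 and -1.33 ± 0.46 (adjusted p = 0.929 for each). At an unadjusted p under 0.05 these comparisons gave 3 members each, against 11.6% and 5.16% of genes, and MSA_ConA against Control gave 7 against 24.1%. For ConA against Control the 3 were Cyp26b1, Cyp26c1 and Cyp3a11 (0.65 ± 0.27). For MSA_ConA against ConA the 3 were Cyp2b10 (-0.50 ± 0.14), Cyp26a1 and Cyp26c1. Both comparisons use the same ConA libraries. Cyp26a1 measured 14.6 and 32.6 CPM in Control 2 and 3, 29.1 and 68.8 CPM in ConA 2 and 3, and 19.2 and 19.3 CPM in MSA_ConA 2 and 3, so ConA overlapped Control, while both MSA_ConA libraries lay below both ConA libraries. Cyp26b1 and Cyp26c1 were under 5 CPM throughout.

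Libraries numbered 1 differed from numbers 2 and 3 in 25 of 48 members when group was in the model, 10 higher and 15 lower (38.3% of all genes called, 19.1% higher and 19.2% lower). For Control 1 against Control 2 and 3, 24 members were called, 15 higher and 9 lower (27.8% of genes; 12.1% and 15.7%). That contrast, called within Control below, sets 1 library against 2 and takes its spread from the numbers 2 and 3 of all groups, so leaving out a treated library can change its calls. At an unadjusted p under 0.05 the counts were 28 members (49.2% of genes) and 32 members (41.4%). The ranges of number 1 and of the other 6 libraries did not overlap in 10 members that were higher (14.8% of genes) and 14 that were lower (19.2%). The members' median was -0.32 and that of all genes -0.10 in the first model. Scaling by library totals in place of TMM moved the all-gene median to -0.81 (-0.32 within Control, from -0.05) and the split to 5 higher and 22 lower (7.42% and 37.3% of genes), and within Control to 12 and 16 (7.09% and 24.8%). No named member that was called turned its sign under it.

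**Figure D2:**
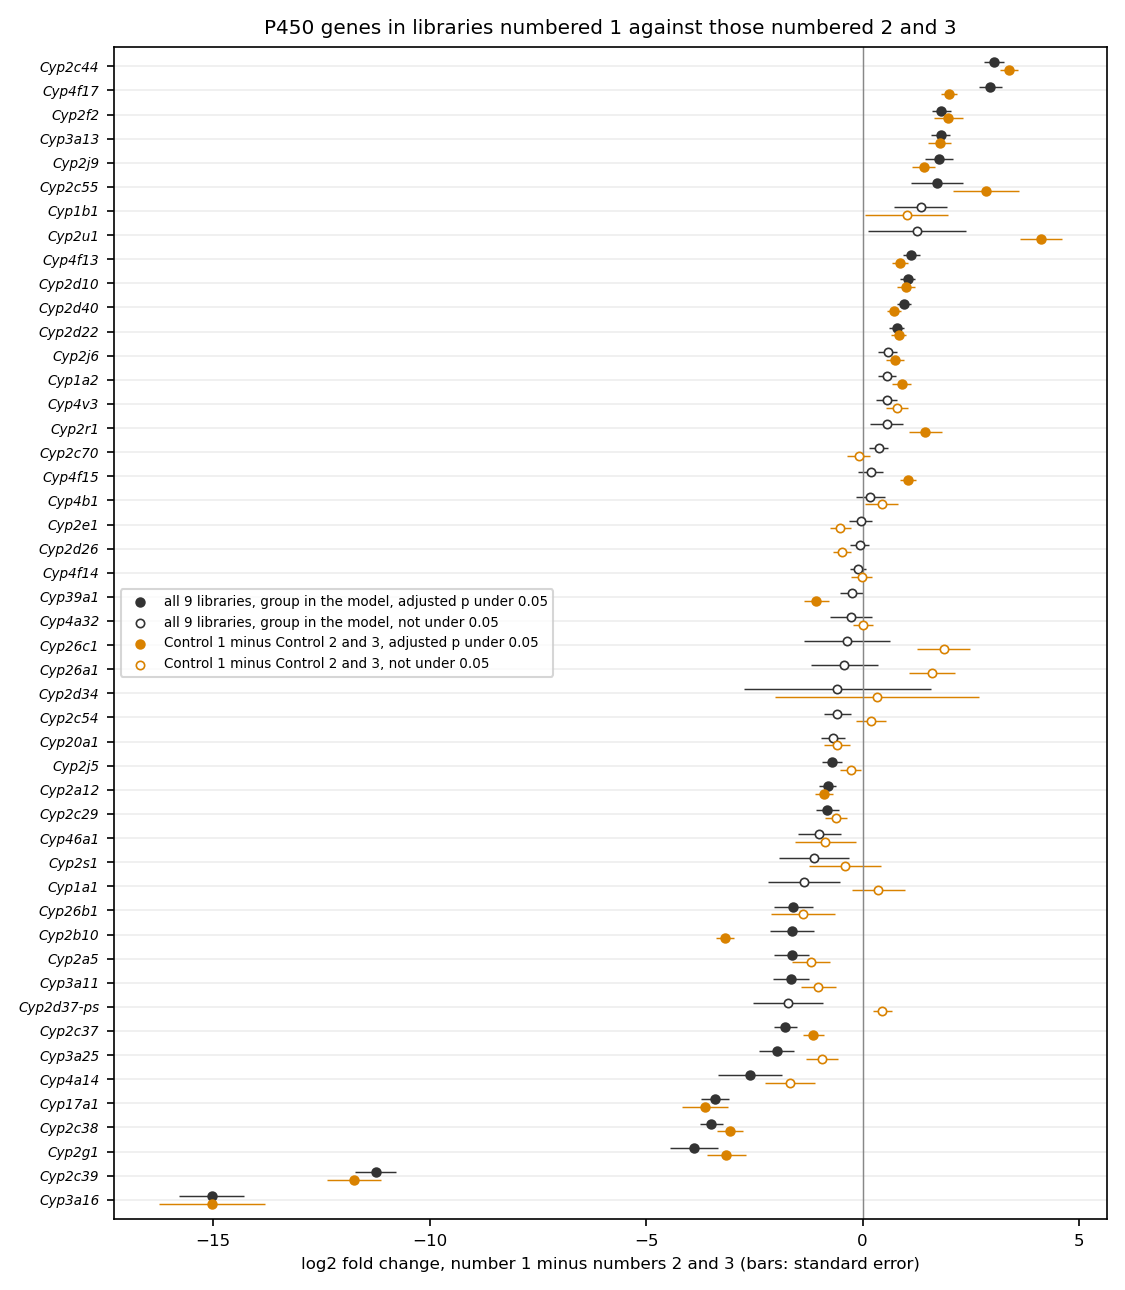
Log2 fold change of number 1 minus numbers 2 and 3 for the 48 tested members, with standard errors, with group in the model (dark) and for Control 1 against Control 2 and 3 (orange), both fitted on all 9 libraries; filled points passed an adjusted p of 0.05. Cyp2c39 (-11.24) lies far below the rest, as does Cyp3a16, whose plotted value is set by the fit because number 1 had no counts, and Cyp2c44 (3.03) leads the higher genes.

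The lowest were Cyp3a16 and Cyp2c39. Promoter bases of both are shown here, since these genes were near off in number 1. Those of Cyp2b10 and Cyp2a5 are added for their match to the D-box, the element of the circadian factors described below. Cyp4f14 has the same word and did not pass with group in the model, but is not shown. Sequences are the 250 bases before the gene start in RefSeq on GRCm38.p6, a build other than that of the counts, read 5′ to 3′: Cyp3a16 at chr5:145469724-145469973 (minus strand), Cyp2c39 at chr19:39510572-39510821 (plus, the second of 2 listed starts), Cyp2a5 at chr7:26835089-26835338 (plus) and Cyp2b10 at chr7:25897408-25897657 (plus). Capitals mark a searched word.
Cyp3a16: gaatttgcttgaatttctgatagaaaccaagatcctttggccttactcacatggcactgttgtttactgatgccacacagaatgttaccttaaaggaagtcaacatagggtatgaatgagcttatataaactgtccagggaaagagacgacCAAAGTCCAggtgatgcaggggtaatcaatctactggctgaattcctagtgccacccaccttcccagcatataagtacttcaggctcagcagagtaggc
Cyp2c39: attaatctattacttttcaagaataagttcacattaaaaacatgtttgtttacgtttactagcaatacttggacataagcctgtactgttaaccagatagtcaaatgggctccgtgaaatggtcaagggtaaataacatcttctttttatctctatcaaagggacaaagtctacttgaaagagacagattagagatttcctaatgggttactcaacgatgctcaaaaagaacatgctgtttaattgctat
Cyp2a5: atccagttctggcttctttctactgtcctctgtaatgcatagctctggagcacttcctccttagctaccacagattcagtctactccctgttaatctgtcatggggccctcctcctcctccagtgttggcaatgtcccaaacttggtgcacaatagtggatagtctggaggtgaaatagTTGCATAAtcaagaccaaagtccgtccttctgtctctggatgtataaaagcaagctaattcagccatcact
Cyp2b10: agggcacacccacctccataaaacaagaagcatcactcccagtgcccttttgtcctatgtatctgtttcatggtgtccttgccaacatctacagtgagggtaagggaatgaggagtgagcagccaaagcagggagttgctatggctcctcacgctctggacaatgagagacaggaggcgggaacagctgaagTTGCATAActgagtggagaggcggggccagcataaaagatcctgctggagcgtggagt
Words were searched on both strands in the 56 members with an entry. The HNF4 word CAAAGTCCA, of a hepatocyte nuclear factor, stood in 4 members (0.45% of 27025 genes): Cyp2c65, Cyp2c70, Cyp3a11 and Cyp3a16. The D-box word TTATGNAA stood in 6 (3.63% of genes), always as its reverse complement TTGCATAA: Cyp2a4, Cyp2a5, Cyp2b10, Cyp2b19, Cyp2b23 and Cyp4f14. The STAT5 word TTCNNNGAA, of the growth hormone pathway, stood in 5 (8.13%), none of them Cyp3a16 or Cyp2c39. A match describes these letters and is not a measured site.

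Cyp3a16, a CYP3A member that is higher in female liver, lies on chromosome 5 at 156393229 to 156427204 (minus strand) of the C57BL/6NJ assembly used in the files. It had no count in any of the 3 libraries numbered 1. In the others it measured 294 and 228 CPM (Control 2 and 3), 218 and 226 CPM (ConA) and 444 and 195 CPM (MSA_ConA), at least 492-fold higher than a floor of 3 counts per library. Cyp2c39, a CYP2C member of the chromosome 19 cluster (39660264 to 39719547, plus strand), had 3, 3 and 6 counts in Control 1, ConA 1 and MSA_ConA 1 and 12665 to 24303 counts in the rest. That is 0.224, 0.291 and 0.792 CPM against 662 to 1346 CPM, a log2 fold change of -11.24 ± 0.47 (adjusted p = 1.2e-05). In its transcript 12.05% of 50-base words are shared with another gene, and 10.71% in Cyp3a16.

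The neighbouring Cyp2c38 measured 26.4, 22.7 and 23.6 CPM in number 1 and 204 to 376 CPM elsewhere (-3.49 ± 0.26, adjusted p = 0.000213). Cyp17a1, the steroid 17-alpha-hydroxylase, female-biased in mouse liver, measured 5.97, 5.73 and 6.73 CPM against 38.3 to 85.4 CPM (-3.41 ± 0.32). Both were lower in number 1 with no overlap between libraries. Cyp2g1 was lower too (0.0971 to 1.34 against 7.45 to 13.2 CPM, -3.90 ± 0.56), as was Cyp2c37 (182 to 323 against 643 to 975 CPM, -1.78 ± 0.27). The listed female-biased members that were tested, Cyp17a1 and Cyp3a16, thus both passed as lower, beside 19.2% of all genes. Cyp2a4 had no counts.

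Higher in number 1 was Cyp2c44, an epoxygenase of arachidonic acid, at 502, 257 and 455 CPM against 41.3 to 54.8 CPM (3.03 ± 0.23, adjusted p = 0.000215). Cyp4f17 measured 34.5, 73.4 and 80.1 CPM against 6.66 to 8.88 CPM (2.95 ± 0.26). Neither overlapped. Cyp2f2, which oxidises naphthalene, measured 1147, 1005 and 757 CPM against 170 to 336 CPM (1.82 ± 0.22), and Cyp3a13, a drug-oxidising CYP3A, 147, 143 and 262 CPM against 42.0 to 71.4 CPM (1.80 ± 0.21). Of the 9 tested epoxygenase and leukotriene hydroxylase members, 4 passed as higher and 1 as lower (19.1% and 19.2% of all genes). The list median was 1.13 beside -0.10 over all genes.

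Receptor-responsive members were mixed. Of the 6 genes listed as responsive to Nr1i3 and Nr1i2, 2 passed as higher (Cyp3a13 and Cyp2c55), beside 19.1% of all genes. The other 4 passed as lower (Cyp2b10, Cyp2c29, Cyp3a11 and Cyp3a25), beside 19.2% of all genes. The list median was -1.22, with group in the model throughout. Cyp2b10, the phenobarbital-responsive gene, measured 5.89 CPM in Control 1 against 57.05 and 49.8 CPM in Control 2 and 3 (-3.18 ± 0.21, adjusted p = 0.000427). With all groups it was -1.62 ± 0.50, and that call was lost without any of Control 1, Control 3, ConA 1, ConA 2 or ConA 3 (-1.02, -1.59, -1.40, -1.63 and -1.59, adjusted p 0.0533 to 0.141). Among Ahr-responsive genes only Cyp1a2 passed, and only within Control (0.90 ± 0.22; 1616 CPM in Control 1 against 879 and 849 CPM), a call lost without Control 2, Control 3 or ConA 3 (adjusted p 0.0508 to 0.111). In the model with all groups 4 of 7 pericentral members passed as lower (Cyp2a5, Cyp2c29, Cyp2c37 and Cyp3a11), beside 19.2% of all genes. None passed as higher, beside 19.1%. Of the 4, Cyp2a5, Cyp2c37 and Cyp3a11 cannot be counted cleanly, as described above. Cyp1a2 did not pass there but lay higher in number 1 with no overlap (915 to 1616 against 573 to 879 CPM). Cyp2e1 did not pass (-0.04 ± 0.27), though by library totals it measured -0.78 (adjusted p = 0.0154).

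Did concanavalin A act on P450s alike in number 1 and in numbers 2 and 3? The difference of the ConA effect was tested in a model with a mean for each group and number class. It was called for 14 of 48 members, 4 with a more positive effect in number 1 and 10 with a more negative one, beside 31.1% of all genes (15.7% and 15.4%), and 20 passed an unadjusted p of 0.05 (44.3% of genes). By library totals the counts were 1 and 20 (9.07% and 28.4% of genes), with the all-gene median moved from -0.09 to -0.63. The test rests on 1 library numbered 1 per group, assumed to vary like the others, and on 3 residual degrees of freedom. In 6 of the 14 (Cyp2d37-ps, Cyp2u1, Cyp4a32, Cyp4f15, Cyp4f17 and Cyp4a14) the call held under all 12 alternatives, in the other 8 it was lost under at least 1.

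The 2 tested CYP4A genes, fatty acid omega-hydroxylases that Ppara switches on, were lowest in ConA 1. Cyp4a14 measured 127, 399 and 411 CPM in Control 1, 2 and 3, then 12.2, 355 and 723 CPM in ConA and 132, 300 and 701 CPM in MSA_ConA. All 3 libraries of number 1 lay below the other 6, ConA 1 furthest, and MSA_ConA 1 lay near Control 1. The ConA effect in number 1 was lower than in numbers 2 and 3 by -3.78 ± 0.81 (adjusted p = 0.0133), and the MSA effect higher by 3.54 ± 0.81 (adjusted p = 0.0256). Cyp4a32 followed the same course, from 46.8 to 9.71 to 65.7 CPM in number 1 and between 32.8 and 52.9 CPM in all others (-2.27 ± 0.36 and 3.03 ± 0.36, adjusted p = 0.00438 and 0.0028). Cyp4a32 cannot be counted cleanly, as described above, so its values are uncertain. In its transcript 43.83% of words also occur in another gene, and 32.57% in Cyp4a10. A coding model with 32508 counts overlaps it on the same strand, beside 6178 counts of its own. The MSA value of Cyp4a14 missed the threshold without Control 2, Control 3 or ConA 3 (adjusted p 0.0553 to 0.0584), while that of Cyp4a32 passed in each alternative. All alternatives used the deposited counts or FPKM, so they do not test how reads were assigned. The 2 differences share ConA 1, so they are not independent of each other.

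**Figure D3:**
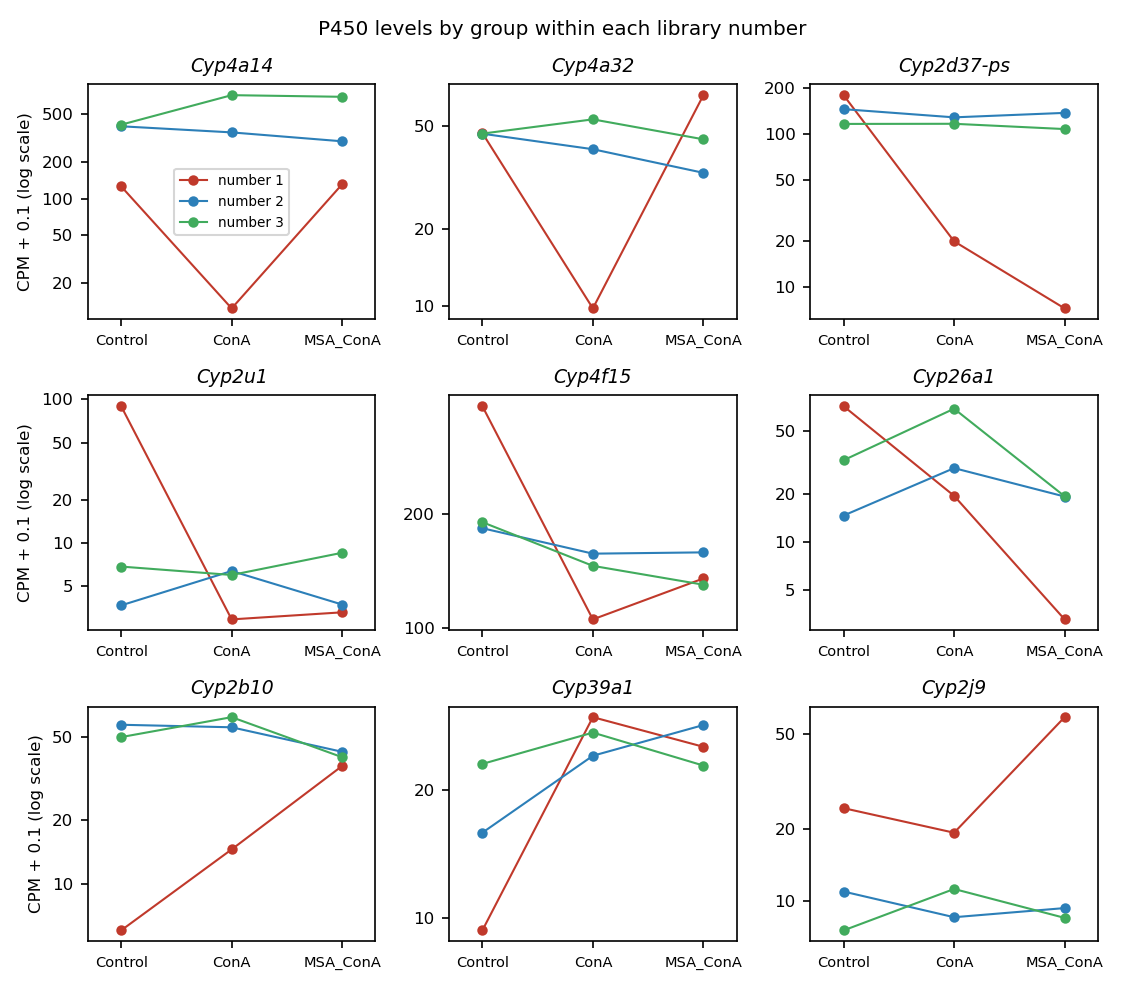
CPM + 0.1 (log axis) of 9 members in Control, ConA and MSA_ConA; lines join libraries of the same number, which are different animals. In Cyp4a14 and Cyp4a32 number 1 (red) is lowest in ConA 1, at 12.2 and 9.71 CPM, and in Cyp2u1 only Control 1 is high, at 89.7 CPM.

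Other members were highest in Control 1 and lower in ConA 1 and MSA_ConA 1 than in Control 1. Cyp4f15 in MSA_ConA 1 and Cyp26a1 in ConA 1 lay within the range of numbers 2 and 3. Cyp2d37-ps, named as a pseudogene but coding in the deposited annotation, measured 178, 19.7 and 7.12 CPM in Control 1, ConA 1 and MSA_ConA 1, and 107 to 144 CPM elsewhere (-3.08 ± 0.33, adjusted p = 0.00115). Cyp2u1 measured 89.7, 2.82 and 3.17 CPM (-5.23 ± 0.79), and Cyp4f15 387, 105 and 135 CPM beside 130 to 191 CPM elsewhere (-1.57 ± 0.27). Cyp26a1 measured 71.4, 19.4 and 3.17 CPM in number 1, against its numbers 2 and 3 given above; the difference of -2.93 ± 0.81 (adjusted p = 0.032) was lost by limma on FPKM and without Control 2 or ConA 3 (adjusted p 0.0528 to 0.0636).

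In the other direction, Cyp4f17 (1.35 ± 0.27), Cyp39a1 (1.28 ± 0.38) and Cyp2b10 (1.16 ± 0.27) had a more positive ConA effect in number 1; the last 2 missed the threshold by library totals (adjusted p = 0.129 and 0.113). Cyp39a1 measured 9.25 CPM in Control 1 and 29.6 CPM in ConA 1, beside 15.8 and 22.95 CPM in Control 2 and 3 and 24.0 and 27.2 CPM in ConA 2 and 3, so it was higher in ConA in all 3 numbers. Cyp2b10 measured 5.89, 14.5 and 36.3 CPM in Control 1, ConA 1 and MSA_ConA 1, and 39.9 to 62.0 CPM elsewhere. For MSA_ConA against ConA the difference between numbers was called for 5 members, 4 more positive and 1 more negative, beside 18.7% of genes (8.59% and 10.1%), and 14 passed an unadjusted p of 0.05 (35.2%). By library totals 4 and 3 were called (762 and 2047 of 14603 genes), with the all-gene median moved from -0.01 to -0.28. They were both CYP4A genes, Cyp2b10 (1.84 ± 0.26, adjusted p = 0.00519), the epoxygenase Cyp2j9 (1.76 ± 0.40; 24.4, 19.2 and 58.7 CPM in number 1, at most 11.1 CPM elsewhere) and Cyp2d37-ps (-1.47 ± 0.36). Without ConA 3 the count was 2, and those of Cyp4a14, Cyp2j9 and Cyp2d37-ps were among the calls lost.

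As a description without replicates, 35 members reached 10 CPM in Control 1 or ConA 1. On CPM + 1, 3 of them were at least 2-fold higher in ConA 1 (24.4% of genes) and 9 at least 2-fold lower (16.6%); by library totals 1 and 18 of 33 were (15.4% and 29.1% of genes). From Control 2 to ConA 2, 3 of 38 members were higher (1.54% of genes) and 1 lower (0.6%). The 3 were Cyp11a1, Cyp11b1 and Cyp11b2, found in ConA 2 with adrenal cortex markers, as described below. From Control 3 to ConA 3, 1 of 33 members was higher (0.197% of genes) and 0 were lower (0.492%). In ConA 1 against Control 1, Cyp4a14 was 10.4-fold lower (8.63 to 12.5, exact 95% interval, counting error only), Cyp2d37-ps 9.05-fold (7.84 to 10.5) and Cyp2u1 31.9-fold (22.1 to 47.8). From ConA 1 to MSA_ConA 1, of 32 members 8 were at least 2-fold higher (14.2% of genes) and 3 lower (17.8%); by library totals 4 and 4 of 30 (9.12% and 21.5%). Cyp4a14 was 10.8-fold higher (8.95 to 13.1), Cyp4a32 6.77-fold higher (5.45 to 8.48) and Cyp26a1 6.13-fold lower (4.00 to 9.80). Cyp2j8 and Cyp2t4 reached 11.6 and 12.1 CPM in MSA_ConA 1 and at most 0.582 and 3.88 CPM elsewhere; Cyp2t4 overlaps Egln2 on the opposite strand, from which its reads cannot be told apart without strand. Neutrophil markers summed to 398 CPM in ConA 1, 53.0 CPM in MSA_ConA 1 and at most 3.06 CPM elsewhere (5 genes, S100a9 at 262 CPM in ConA 1). Cholangiocyte markers summed to 784 CPM in ConA 1, of which Sox9 made 636 CPM, and to 48.8 to 116 CPM elsewhere. T and NK cell markers summed to 30.5 CPM there, mostly Gzmb (24.9 CPM), and to at most 3.71 CPM elsewhere; hepatocyte markers came to 111340, 93433 and 154718 CPM along number 1. Their part in these ratios was not tested, and in bulk liver fewer cells of a type and less RNA per cell cannot be told apart.

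Steroid-making P450s, which belong to the adrenal cortex and gonads, appeared in the library labelled ConA 2. Cyp11a1, the side-chain cleavage enzyme that starts steroid synthesis, measured 134 CPM there and at most 0.224 CPM in the other 8. Cyp11b1, the 11-beta-hydroxylase of corticosterone, measured 308 CPM against at most 0.0554 CPM, and Cyp11b2, the aldosterone synthase, 11.3 CPM against at most 0.0516 CPM. None passed the filter on low counts, since only 1 library held them. The adrenal cortex markers moved with them: 5 of 5 were highest in ConA 2, where they summed to 1056 CPM against 2.72 to 8.31 CPM elsewhere. Among them Star and Hsd3b1 measured 490 and 518 CPM, and the receptor Mc2r and the factor Nr5a1 12.1 and 14.5 CPM, near 0 in the rest. Cyp17a1 and Cyp19a1 did not follow: Cyp17a1 was 55.2 CPM in ConA 2, within the 38.3 to 85.4 CPM of numbers 2 and 3, and Cyp19a1 had no count.

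**Figure D4:**
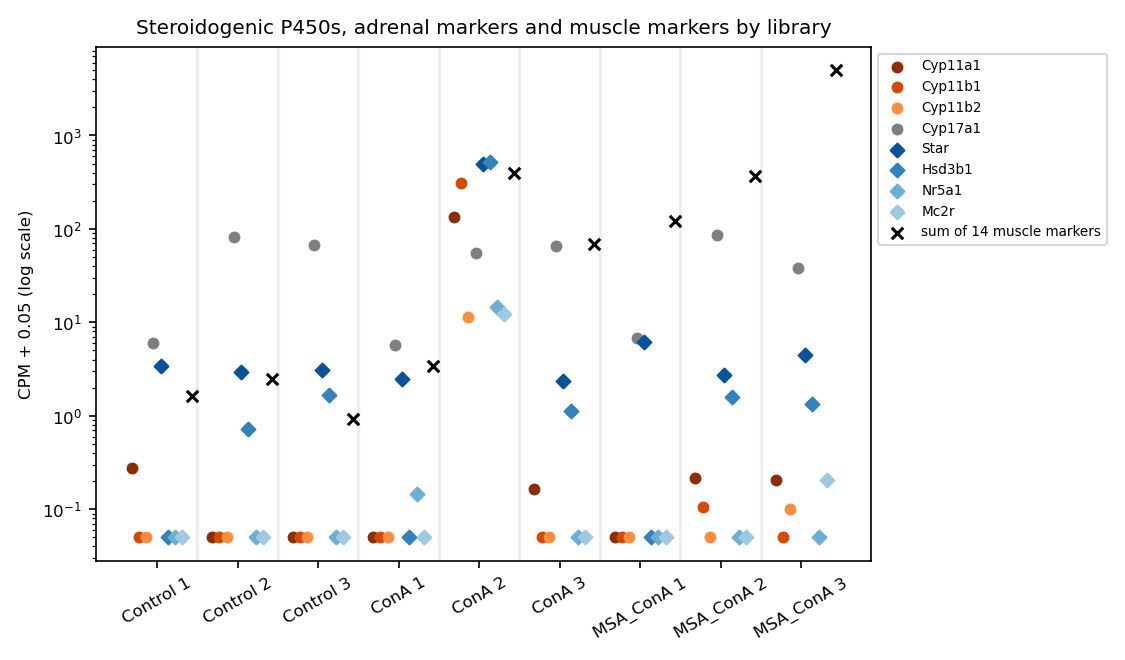
CPM + 0.05 (log axis) by library of steroidogenic P450s (circles), adrenal cortex markers (diamonds) and the sum of 14 muscle markers (crosses). Cyp11a1, Cyp11b1 and Cyp11b2 rise from near 0 to 134, 308 and 11.3 CPM in ConA 2 only, together with Star and Hsd3b1; the muscle sum is highest in MSA_ConA 3, at 4975 CPM.

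Members of low level had their own patterns. Cyp2d34, a CYP2D gene on chromosome 15, measured 12.1, 19.2 and 40.8 CPM in Control 1, Control 2 and MSA_ConA 2 and at most 0.777 CPM in the other 6, a division that follows neither group nor number. It was the only 1 of 42188 genes with these 3 libraries each at 1 CPM or more and at least 10-fold above the other 6, a search made after its values were seen. Cyp27b1, which makes active vitamin D, measured 2.82 and 5.28 CPM in ConA 1 and MSA_ConA 1 and at most 0.224 CPM elsewhere, while the 25-hydroxylase Cyp2r1 stayed at 3.54 to 11.2 CPM. Cyp4f18, which inactivates leukotriene B4 in myeloid cells, measured 9.51 CPM in ConA 1, 1.45 CPM in MSA_ConA 1 and at most 0.418 CPM elsewhere. Neutrophil markers were highest in the same library, and its gene overlaps Zfp961 on the other strand. The dioxin-responsive Cyp1a1 stayed at or under 1.65 CPM and Cyp2s1 at or under 2.37 CPM in all libraries.

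Electron donors and partners of P450s differed between number 1 and the others in 5 of 10 genes with group in the model, all higher (38.3% of all genes called). Ephx1, the microsomal epoxide hydrolase, measured 724, 444 and 615 CPM against 139 to 204 CPM (1.76 ± 0.18), and the soluble hydrolase Ephx2 899, 673 and 1221 CPM against 431 to 552 CPM (0.84 ± 0.20, lost by library totals at 0.12). Por, the reductase that feeds microsomal P450s, measured 257, 1146 and 1773 CPM in Control 1, ConA 1 and MSA_ConA 1 and 242 to 451 CPM elsewhere. Within Control it was lower in number 1 (-0.81 ± 0.22, adjusted p = 0.0335), a call lost without Control 2, Control 3, ConA 2 or ConA 3 (adjusted p 0.0692 to 0.127), and its ConA effect was more positive there by 2.71 ± 0.31 (adjusted p = 0.00143). Cyb5b, another gene of this list, went the opposite way from Por, from 525 to 178 and 137 CPM in number 1 (-1.94 ± 0.35), with 377 to 554 CPM elsewhere. Cyb5a did not follow that course, at 1325, 805 and 1458 CPM in number 1 and 847 to 1205 CPM elsewhere. The mitochondrial donors Fdx1 and Fdxr were among the 5, and the call of Fdxr (1.55 ± 0.53, adjusted p = 0.048) was lost in 9 alternatives.

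Of 12 heme synthesis and breakdown genes, 5 passed as higher (19.1% of all genes) and 2 as lower (19.2%) in number 1 with group in the model; the call of Hmox1 among them (4.65 ± 1.44) was lost by library totals and without any 1 of the ConA or MSA_ConA libraries. The heme-degrading Hmox1 measured 19.0, 3526 and 152 CPM in Control 1, ConA 1 and MSA_ConA 1 and 13.1 to 18.8 CPM elsewhere, with a ConA effect larger in number 1 by 7.89 ± 0.30 (adjusted p = 0.000138). Alas1, the first enzyme of heme synthesis, measured 535, 752 and 1348 CPM in number 1 and 527 to 912 CPM elsewhere. Blvrb, a biliverdin reductase, was 2.24 ± 0.18 higher in number 1 and Cpox, the coproporphyrinogen oxidase, 2.01 ± 0.27 lower.

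Among 12 transcription factors of P450 genes, 2 passed as higher and 4 as lower in number 1 (19.1% and 19.2% of all genes), and within Control 1 and 8 did (12.1% and 15.7%). The circadian activators that bind the D-box, Dbp, Tef and Hlf, were lower: Dbp measured 6.02 to 10.3 CPM against 99.9 to 251 CPM (-4.48 ± 0.25), Tef 23.1 to 82.9 against 319 to 402 CPM, and Hlf 7.57 to 26.2 against 81.4 to 118 CPM. Nfil3, which represses from the same element, was higher, at 29.7, 487 and 569 CPM against 8.41 to 15.7 CPM (4.51 ± 0.74). Of the 6 members with that word, Cyp2a5 and Cyp2b10 passed as lower with group in the model, Cyp4f14 did not pass (-0.10 ± 0.19), Cyp2b19 had 0.0568 CPM in ConA 3 and nothing elsewhere, and Cyp2a4 and Cyp2b23 had no counts. Of 8 growth hormone and sex-bias genes 2 passed as higher and 3 as lower, beside the same 19.1% and 19.2%. Cux2, a repressor that is female-specific in liver, measured 0.447, 0.388 and 3.56 CPM in number 1 and 25.7 to 65.7 CPM elsewhere (-5.22 ± 0.78). Bcl6, a male-biased repressor, measured 24.3, 120 and 195 CPM in number 1 and 9.14 to 51.4 CPM elsewhere, so its ranges overlapped (1.64 ± 0.40, adjusted p = 0.0137), and the call was lost by library totals and without MSA_ConA 1.

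**Figure D5:**
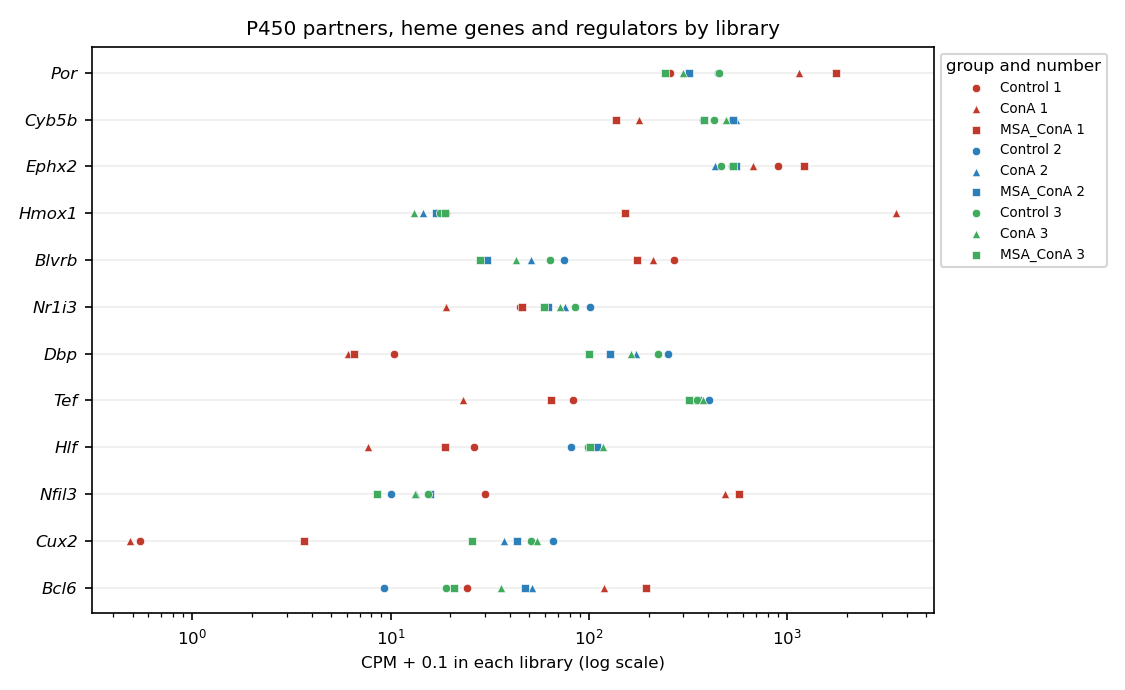
CPM + 0.1 (log axis) of P450 partners, heme genes and regulators, 1 point per library (colour for number, shape for group). Dbp, Tef, Hlf and Cux2 are lower and Nfil3 and Blvrb higher in all 3 libraries of number 1; Hmox1 peaks in ConA 1 at 3526 CPM.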

How the data were processed

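Total RNA of mouse liver was made into Illumina libraries, per the labels' protocols. The authors deposited raw counts per gene and FPKM for 9 libraries; each FPKM equals the count over gene length and 1 effective total per library. Bowtie 0.12.2, mm8 and mm10 are named in the submitters' processing notes with no role; gene models are those of the C57BL/6NJ assembly. No source used here names the counting tool or strand setting. Columns headed M were matched to MSA_ConA.

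Members, gene lists, the division by library number and the rule for named genes (fixed names, 10 highest FPKM, the 5 largest changes each way and 3 smallest p per comparison, the largest single-library ratios and pathway changes) were chosen with earlier results of these data known.

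Counts were fitted with edgeR 4.0.16 (R 4.3.3) quasi-likelihood, TMM factors 0.571 to 1.26 and the default filter by group, on all 9 libraries, with Benjamini-Hochberg adjustment over 14603 genes. Residual degrees of freedom were 6 (groups), 5 (group plus number class) and 3 (a mean per group and class). P-values measure only the spread between these libraries. A count of 0 allows up to 3 counts, or 0.174 to 0.226 CPM of the total; intervals cover counting error only. Alternatives were DESeq2 1.42.0, RLE, library totals, no filter, limma 3.58.1 on log2(FPKM + 1) of the deposited FPKM, only the groups compared, only numbers 2 and 3, a block for the number, and leaving out each library. Scripts were tested on simulated counts.

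Same-numbered libraries deviated together from their group means (correlations 0.337 to 0.720, all over 0.1), and other pairs ranged from -0.691 to 0.706. Of the other pairs, those with number 1 were all negative and those of numbers 2 and 3 all positive. Within numbers 2 and 3 the correlations did not sort by number. ConA 3 gave 0.706 with MSA_ConA 2 and 0.493 with MSA_ConA 3, whereas Control 3 gave 0.332 with ConA 2 and 0.474 with ConA 3. Pairing by number was thus not shown for them, and the block for the number served only as an alternative. Shared 50-base words were counted over GENCODE M21 transcripts, found for 72 members; RefSeq promoters (GRCm38.p6) matched 56.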

Additional observations from a re-analysis of the deposited data

Results flagged for a closer look

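ConA against Control gave another effect in number 1 than in numbers 2 and 3, by the test of the difference itself with edgeR, for 14 of 48 members, beside 31.1% of all genes. As log2 differences of effect the more negative in number 1 were Cyp2d37-ps -3.08, Cyp2u1 -5.23, Cyp4a32 -2.27, Cyp4f15 -1.57, Cyp4a14 -3.78, Cyp26c1 -4.02, Cyp26a1 -2.93, Cyp2c44 -1.06, Cyp2g1 -3.33, Cyp3a25 -1.64. The more positive were Cyp4f17 1.35, Cyp2b10 1.16, Cyp39a1 1.28, Cyp2d26 0.89. Among the partner and regulator genes named, the same test gave Hlf -2.06, Tef -1.75, Cyb5b -1.94 on the negative side and Por 2.71, Hmox1 7.89, Nfil3 3.97, Alas1 1.10 on the positive side. The effect of MSA_ConA against ConA differed for 5 of 48 members, beside 18.7% of all genes: Cyp4a32 3.03, Cyp2b10 1.84, Cyp2j9 1.76, Cyp4a14 3.54 and Cyp2d37-ps -1.47, and among partners and regulators for Fdxr 3.05, Hlf 1.34, Tef 1.54, Nr1i2 1.66, Nr1i3 1.56 and Hmox1 -4.91. The Alas1 call was lost by library totals (0.55, adjusted p = 0.172) and without Control 3, ConA 2 or ConA 3. The MSA calls of Fdxr (without Control 2 or 3) and Hlf (by limma, and without ConA 3 or MSA_ConA 3) were lost too. All rest on 1 library numbered 1 per group. Cyp4a32 and Cyp3a25 share 43.83% and 26.84% of their words with other genes, so their values are uncertain. Number goes with transcripts of sex, strain and the clock, so these cannot be told apart as the source of the difference.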

How the results depend on the processing

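For the 3 labelled comparisons no alternative called a P450 member. DESeq2 called 2 genes for ConA against Control and 55 for MSA_ConA against Control, where edgeR called 0; the cause was not tested. A block for the library number, fitted in edgeR, called 0 genes and 0 members in each of the 3 labelled comparisons. It was fitted for these only. Cyp2c55 and Cyp2c37 lost their calls within Control without Control 3 (adjusted p = 0.0805 and 0.0787), and Cyp4a14 lost its call over all groups without MSA_ConA 1 or 3. For number 1 against numbers 2 and 3 within Control, leaving out 1 library gave 1340 to 4238 genes and 12 to 28 members, the lowest of both without Control 3, which leaves 1 library a side. With group in the model the ranges were 4016 to 8145 genes and 20 to 32 members. For the difference in the ConA effect they were 3071 to 4659 genes and 10 to 19 members, and limma on log2(FPKM + 1) called 9 members where edgeR called 14. For the difference in the MSA effect they were 1368 to 2649 genes and 2 to 6 members, with 1631 genes without ConA 2 and 1368 genes and 2 members without ConA 3; DESeq2 called 9 members where edgeR called 5.

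Cyp2e1 was called by DESeq2 for the difference in the MSA effect (0.86, adjusted p = 0.023) and by library totals within Control (-0.79, adjusted p = 0.0262), but not in edgeR with TMM; elsewhere it changed sign near 0. For ConA against Control it ranged from -0.059 to 0.23 when 1 library was left out, with -0.059 without Control 1 and -0.0078 without ConA 3, and for MSA_ConA against ConA -0.0058 in numbers 2 and 3 alone. For number 1 against the rest it was 0.0144 by DESeq2 and by RLE, and from -0.39 to 0.16 when 1 library was left out, with 0.16, 0.0143 and 0.058 without Control 1, Control 3 and ConA 1. For the difference in the ConA effect it was -0.28 by library totals. Cyp2u1 for ConA against Control was 0.22 in numbers 2 and 3 alone. A count of 1 is worth 0.0579 to 0.0752 CPM of a total, so members under about 1 CPM rest on few counts.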
